A study of Mus musculus with 10 samples.

Results

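The genes described here encode the subunits, caps and assembly chaperones of the proteasome, the protease complex that degrades ubiquitin-tagged proteins. They are all genes whose symbol is Psma, Psmb, Psmc, Psmd, Psme, Psmf or Psmg followed by a number. Of the 48 such genes in the RefSeq gene table, 47 had a probe set annotated to them alone, out of 18194 genes measured in all. For each gene the probe set with the highest mean over the 10 arrays was taken. Psme2 was left out because its probe set is also annotated to Psme2b.

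The proteasome has a barrel-shaped core particle, built from rings of alpha (Psma) and beta (Psmb) subunits, in which only some of the beta subunits cut peptide bonds. A regulatory particle made of the ATPases Psmc and the non-ATPase subunits Psmd binds ubiquitin chains, unfolds the substrate and feeds it into the core. Interferon and haematopoietic cells bring in other catalytic subunits, Psmb8, Psmb9 and Psmb10, which replace Psmb5, Psmb6 and Psmb7 and give the immunoproteasome, whose peptides are loaded on MHC class I. In the epidermis, keratinocytes that differentiate fully lose their nucleus and organelles.

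Transcripts were measured in primary keratinocytes from mouse skin, in 5 samples labelled Sgpp1-/- (KO, numbered 8, 9, 10, 21 and 23) and 5 labelled Sgpp1+/+ (WT, numbered 1 to 5). Sgpp1 encodes sphingosine-1-phosphate phosphatase 1, which dephosphorylates the signalling lipid sphingosine-1-phosphate. Cells of both genotypes grew for 3 to 4 days in low-calcium EMEM (0.05 mM) containing 8% fetal calf serum, with no further treatment named, and each sample was hybridised to 1 Affymetrix Mouse430_2 array. The labels give neither the age of the mice, nor their strain, nor which part of Sgpp1 was disrupted, and they do not say whether the 5 samples of a genotype came from separate animals, so p-values measure the spread between these samples only.

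Several facts of the arrays bear on every value below, all on the log2 scale of the deposited signals. The chosen Sgpp1 probe set did not read lower under the KO label: it gave 8.46, 9.01, 8.69, 8.92 and 9.03 there, against 6.25, 7.82, 8.24, 8.34 and 7.70 in the arrays labelled WT. Its difference of 1.15 (SE 0.33) had a limma adjusted p of 0.102, and without WT 1 it was 0.80 with an adjusted p of 0.0356. The other Sgpp1 probe sets were also higher under the KO label, by 1.24 and 0.51. In each Sgpp1 probe set the KO and WT arrays did not overlap, with an exact two-sided permutation p of 0.00794. Whether these probes lie in the disrupted part is unknown, so the names KO and WT are those of the labels only. Array WT 1 resembled the others least (mean correlation 0.955) and carried the most poly-A spike-in signal (11.28). The basal keratinocyte genes Krt5 and Krt14 averaged 12.73 and 12.72 in KO and 12.78 and 12.69 in WT, and 0 of the 6 basal markers passed by limma. The other basal markers differed by 0.50 (Col17a1), 0.36 (Trp63), 0.20 (Itga6) and 0.13 (Itgb4), with a list median of 0.16. All 7 markers of differentiated keratinocytes on the list (Krt1, Krt10, Ivl, Lor, Flg, Dsg1a and Tgm1) were higher in KO, by 1.13 to 2.95 on the log2 scale, with limma adjusted p from 0.000513 to 0.0194, though Krt1 missed the threshold without KO 9, KO 21 or WT 2 (0.0502 to 0.0679) and without the 3 arrays with the most spike-in signal (0.129). With array number as a covariate all 7 lost their call (limma adjusted p from 0.313 to 0.845), as did every gene of the series. The differences of the 7 markers stayed positive in that fit, from 1.007 (Flg) to 3.045 (Krt10). The labels carry a running array number, apart from the sample numbers used here, that is 6 to 10 in KO and 1 to 5 in WT, so array order and genotype cannot be told apart in any KO minus WT difference. Their list mean ran from 10.30 to 10.84 in KO arrays, against 8.27 to 9.17 in WT arrays. In cultures of mixed cells, fewer cells of a type and less RNA per cell cannot be told apart.

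No proteasome gene passed the test between genotypes. Of 47 genes, 0 were called higher and 0 lower in KO by limma with Benjamini-Hochberg adjustment over all 18194 genes at a threshold of 0.05, where 2.65% of all genes were called, 2.3% higher and 0.346% lower. The smallest adjusted p was 0.173, for Psmb10. At an unadjusted p under 0.05 there were 2 genes, Psmb8 and Psmb10, or 4.26% of the members, against 13% of all genes. Both lay lower in KO, as did 5.64% of all genes at that p. The KO and WT arrays overlapped in all 47 genes, while they did not overlap in 4.38% of all genes.

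These data also bound how large a difference could be. The median difference (KO minus WT) of the 47 genes was -0.07 on the log2 scale, against -0.01 for all genes, and the median size of the difference regardless of sign was 0.11 against 0.15. Of the members 32 lay below 0 and 15 above, so 68.1% were below, against 52.4% of all genes. The median standard error was 0.19. For 45 of 47 genes the 95% interval of the difference lay within 2-fold in either direction, against 88.3% of all genes, and for 33 it lay within 1.5-fold, against 55.5%. The exceptions at 2-fold were Psmb8 and Psmg4, whose intervals reached below it on the lower side. A miss of the threshold does not show that the genotypes are alike, and differences inside these intervals remain possible. The intervals bound the difference between the labelled groups of arrays, in which array order and genotype cannot be told apart.

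**Figure D1:**
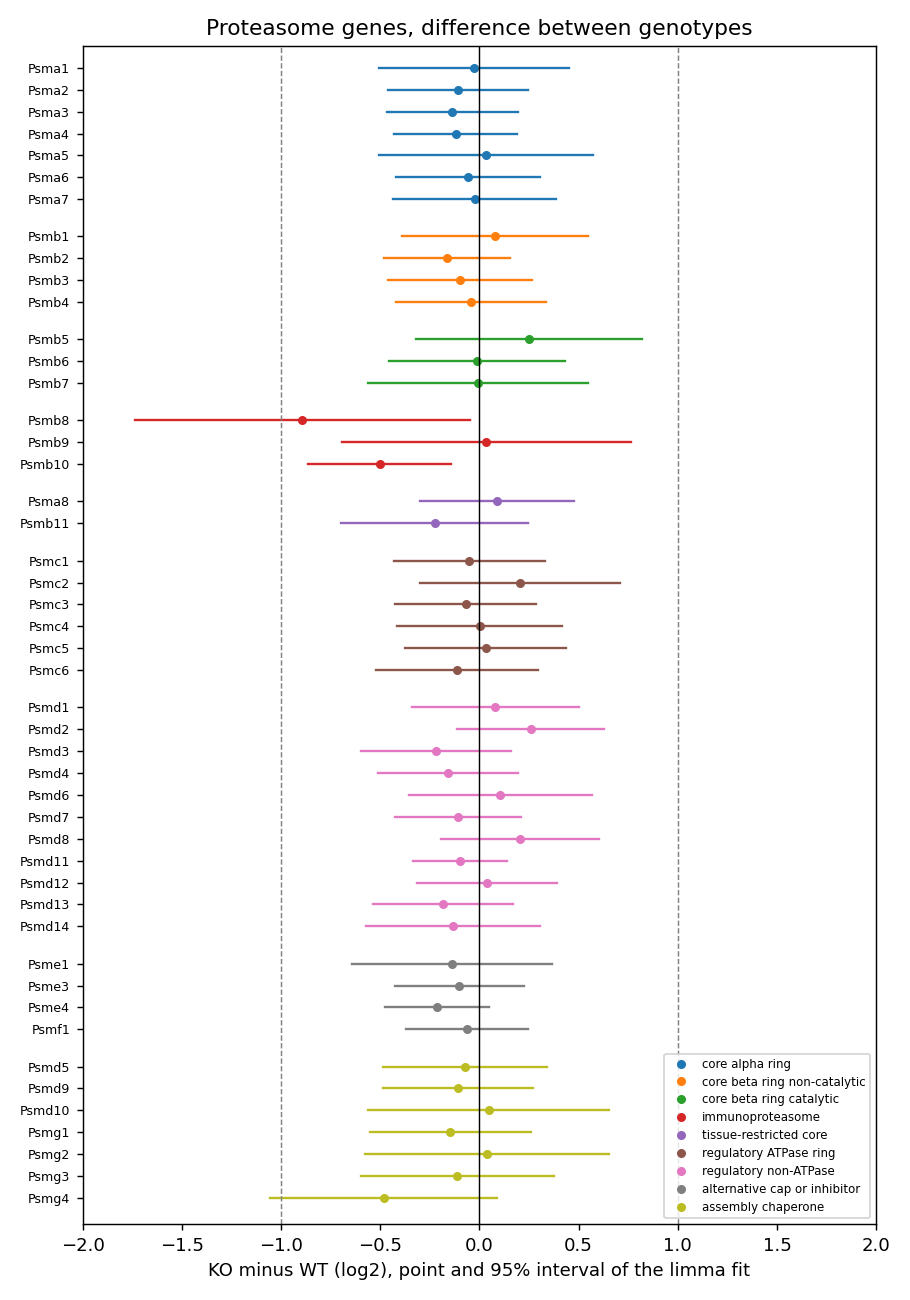
Difference KO minus WT on the log2 scale (horizontal axis) for each of the 47 proteasome genes (vertical axis, coloured by role), with points for the estimate and lines for the 95% interval of the limma fit. Dashed lines mark 2-fold. The intervals of 45 genes stay inside the dashed lines, and those of Psmb8 and Psmg4 cross the lower one.

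The core particle is described first. The 7 alpha ring genes, Psma1 to Psma7, whose products form the outer rings and the gate, had differences between -0.14 (Psma3) and 0.03 (Psma5), with a median of -0.06. Their group means ran from 8.69 to 11.02 in KO and from 8.72 to 11.08 in WT. The beta subunits without protease activity, Psmb1 to Psmb4, differed by between -0.16 (Psmb2) and 0.08 (Psmb1). The lowest limma adjusted p among these 11 genes was 0.750, for Psmb2.

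The constitutive catalytic subunits did not pass either. Psmb5, the chymotrypsin-like protease subunit, read 9.41, 8.88, 8.84, 8.44 and 9.70 in KO arrays 8, 9, 10, 21 and 23, against 8.01, 9.10, 8.90, 9.04 and 8.99 in WT arrays 1 to 5 (log2 signal). KO 23 and KO 8 were the highest of the 10, WT 1 was the lowest, and the groups overlapped. Its limma adjusted p was 0.808 at a difference of 0.25 (SE 0.26). Psmb6, the caspase-like subunit, read 9.92, 9.46, 9.28, 9.02 and 9.99 in the KO arrays in that order, against 9.14, 9.82, 9.60, 9.48 and 9.69 in the WT arrays. It differed by -0.01 (SE 0.20), with an adjusted p of 0.994 from limma. Psmb7, the trypsin-like subunit, read 9.86, 9.98, 9.73, 9.04 and 10.28 in KO arrays, against 8.98, 10.07, 10.13, 9.80 and 9.93 in WT arrays. Its difference was -0.005 (SE 0.26), and the lowest arrays of each genotype, KO 21 and WT 1, were again the low ones of Psmb5 and Psmb6.

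Among the KO arrays the immunoproteasome subunits Psmb8 and Psmb9 had larger ranges (2.10 and 1.49) than Psmb5 and Psmb6, which they replace (1.26 and 0.97), whereas Psmb10 had a smaller one (0.62) than Psmb7 (1.23). Psmb8, the counterpart of Psmb5, read 6.47, 5.02, 4.65, 4.68 and 6.75 in KO arrays 8, 9, 10, 21 and 23, against 6.04, 6.23, 6.59, 6.43 and 6.73 in WT arrays 1 to 5. KO 9, KO 10 and KO 21 lay below every WT array, while KO 8 and KO 23 lay within or just above the WT range. The means were 5.51 ± 1.01 in KO and 6.40 ± 0.28 in WT (log2 signal, SD, n = 5 each). The difference was -0.89 (SE 0.39), a fold of 0.539 with a 95% interval from 0.300 to 0.968, and did not pass (limma adjusted p = 0.346). With array weights, which give less weight to arrays that fit poorly, it was -1.26 with a limma adjusted p of 0.0315. KO 8 and KO 23, the KO arrays not below WT, had weights of 0.665 and 0.71. KO 9, KO 10 and KO 21 had 2.174, 1.803 and 0.883. Under these weights 561 of all 18194 genes were called lower, against 63 without them. A second, dim Psmb8 probe set with a mean of 2.70 differed by 0.11.

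Psmb10, the counterpart of Psmb7, read 7.30, 6.68, 6.76, 6.83 and 7.22 in the KO arrays, against 7.40, 7.80, 7.19, 7.37 and 7.54 in the WT arrays. The same 3 arrays, KO 9, KO 10 and KO 21, were below every WT array, and KO 8 and KO 23 overlapped with WT 3. The difference was -0.50 (SE 0.17), a fold of 0.706 with a 95% interval from 0.550 to 0.906, which did not pass over all genes (limma adjusted p = 0.173). With array weights, which among KO arrays were highest for KO 9 and KO 10, it was -0.55 with a limma adjusted p of 0.0373. Psmb9, the counterpart of Psmb6, read 5.88, 4.65, 4.61, 4.47 and 5.96 in KO arrays, against 4.44, 5.22, 4.75, 5.24 and 5.74 in WT arrays. Here the groups overlapped, with a difference of 0.04 (SE 0.34) and a limma adjusted p of 0.986, although KO 8 and KO 23 were again the highest KO arrays.

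Each inducible subunit was then set against the subunit it replaces, as the log2 difference within an array. Psmb8 minus Psmb5 was -2.95, -3.86, -4.19, -3.76 and -2.96 in KO arrays 8, 9, 10, 21 and 23, against -1.97, -2.86, -2.31, -2.61 and -2.26 in WT arrays 1 to 5. All 5 KO arrays lay below all 5 WT arrays, KO 8 and WT 2 by a narrow gap. The change was -1.14, with an exact two-sided permutation p of 0.00794, the smallest that 5 arrays against 5 can give, and 0.0238 after Benjamini-Hochberg adjustment over the 3 pairs. Without any single one of the 5 WT arrays the exact permutation test no longer passed, with adjusted p between 0.0714 and 0.0952, while the change stayed between -1.26 and -1.03. In each of these subsets all KO arrays still lay below all WT arrays. The other assignments counted in these two-sided p-values were therefore changes of the opposite sign. Averaging all probe sets of each gene gave a change of -0.64 with the same exact p.

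The other pairs did not pass. Psmb10 minus Psmb7 averaged -2.82 ± 0.43 in KO and -2.32 ± 0.49 in WT (SD, n = 5 each), a change of -0.50 with an exact permutation p of 0.127 and 0.190 after adjustment. Psmb9 minus Psmb6 averaged -4.42 ± 0.37 in KO and -4.47 ± 0.37 in WT, a change of 0.05 with an exact permutation p of 0.802 (SD, n = 5 each). A difference within an array shows unequal change of the paired genes and not which of them changed. These values compare each probe set with itself across arrays, since the level of one probe set cannot be read against that of another.

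**Figure D2:**
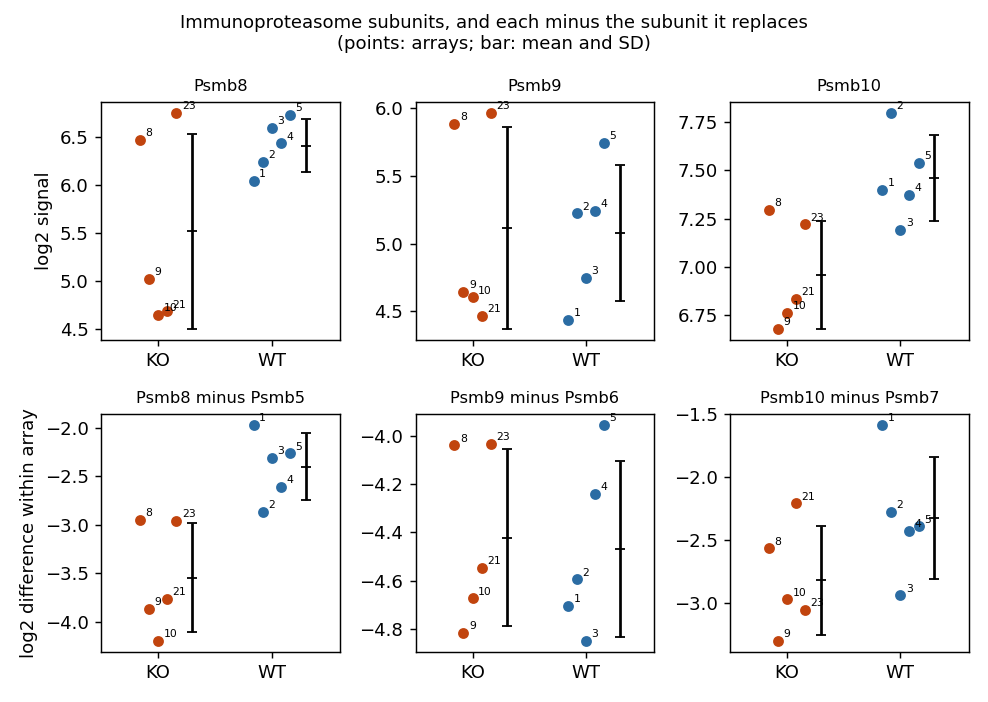
Upper row, log2 signal of the immunoproteasome genes Psmb8, Psmb9 and Psmb10 in KO and WT arrays. Lower row, the same genes minus Psmb5, Psmb6 and Psmb7 within each array. Points are arrays with their numbers, bars are means and SD. In the lower left panel all KO arrays lie below all WT arrays, from -4.19 to -2.95 against -2.86 to -1.97.

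The tissue-restricted members were read at the low end of the scale. Psma8, a testis subunit, averaged 3.27 ± 0.20 in KO and 3.18 ± 0.35 in WT, and Psmb11, the thymus subunit, 3.44 ± 0.15 in KO and 3.66 ± 0.51 in WT (log2 signal, SD, n = 5 each). Whether these signals lie above background cannot be told from the values used here.

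In the regulatory particle, the 6 ATPases Psmc1 to Psmc6 differed by between -0.11 (Psmc6) and 0.21 (Psmc2). Psmc2 read 9.69, 10.03, 10.08, 10.21 and 10.36 in the KO arrays, against 8.95, 10.07, 10.27, 9.98 and 10.06 in the WT arrays, so WT 1 alone lay far below. Its difference had an SE of 0.23 and a limma adjusted p of 0.823, and without WT 1 the difference was -0.02. The 11 non-ATPase subunits had differences between -0.22 for Psmd3, a lid scaffold, and 0.26 for Psmd2, a large substrate-receptor subunit of the base. Psmd2 read 10.09, 10.30, 10.22, 9.92 and 10.38 in KO arrays, against 9.33, 10.04, 10.06, 10.06 and 10.12 in WT arrays. Its adjusted p was 0.616 by limma, and WT 1 was again the low array. Psmd4, a ubiquitin receptor, and Psmd14, the deubiquitinase that removes the ubiquitin chain, differed by -0.16 (SE 0.16) and -0.13 (SE 0.20). Psmd11, a lid scaffold, had the smallest standard error of all members, 0.11. It averaged 10.06 ± 0.07 in KO and 10.16 ± 0.06 in WT (log2 signal, SD, n = 5 each).

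Caps other than the regulatory particle, and the inhibitor, all lay slightly below 0. Psme1, the alpha subunit of the interferon-inducible cap PA28, differed by -0.14 (SE 0.23). It read 9.30, 8.55, 8.40, 7.98 and 9.22 in the KO arrays, against 8.68, 9.04, 8.72, 8.78 and 8.91 in the WT arrays, so that KO 8 and KO 23 were above all WT arrays and the other KO arrays below. Psme3, the nuclear cap PA28 gamma, differed by -0.10, and Psmf1, an inhibitor of the core particle in vitro, by -0.06. Psme4, the cap PA200, averaged 8.33 ± 0.06 in KO and 8.55 ± 0.16 in WT (log2 signal, SD, n = 5 each). Its difference of -0.21 was larger than the range of its 5 KO arrays and had a limma adjusted p of 0.525.

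Among the 7 assembly chaperones, which build the particles and leave them, differences ran from -0.48 (Psmg4) to 0.05 (Psmd10, gankyrin). Psmg4, a chaperone of core assembly, read 5.69, 4.68, 5.01, 4.25 and 5.16 in KO arrays, against 5.61, 6.05, 5.22, 4.95 and 5.38 in WT arrays. KO 8, KO 10 and KO 23 lay inside the WT range, and the difference (SE 0.26) had a limma adjusted p of 0.506. The core chaperones Psmg1, Psmg2 and Psmg3 differed by -0.15, 0.04 and -0.11, and the base chaperones Psmd5 and Psmd9 by -0.07 and -0.11.

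Other probe sets of the same genes gave no call. The 47 members have 100 probe sets of their own in all, and 26 have more than 1. Of the 53 probe sets not chosen, 0 passed by limma adjusted over all probe sets and 0 had an unadjusted p under 0.05, and their differences ran from -0.33 to 0.22. They had the same sign as the chosen probe set in 35 cases.

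Arrays of the same genotype also differed, and most members shared this variation. It was not particular to them, since the lists of related ubiquitin-proteasome and class I genes below were also lowest on WT 1 and highest on KO 23. Each value was expressed as a deviation from the gene's own mean over the 10 arrays. The median deviation of the 47 genes was 0.11 on KO 8, -0.06 on KO 9, -0.20 on KO 10, -0.35 on KO 21 and 0.33 on KO 23, against -0.39 on WT 1, 0.19 on WT 2, 0.08 on WT 3, 0.07 on WT 4 and 0.15 on WT 5. The median deviation of all genes stayed between -0.07 and 0.07. On KO 23, 42 of 47 members lay above their own mean (56.1% of all genes did), and on KO 10 and KO 21 3 and 4 of 47 did (42.8% and 40.0% of all genes). On WT 1, 9 of 47 members lay above their mean (56.0% of all genes did), against 34 to 43 on each other WT array (43.5% to 55.8% of all genes).

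KO 23 was the highest KO array in 37 genes and KO 21 the lowest in 28, while WT 1 was the lowest WT array in 38. In 46 of 47 genes the range over the 5 KO arrays exceeded the difference between genotypes, the exception being Psme4. In 46 the range over the WT arrays did, the exception being Psmb8. A range takes the extreme arrays while the difference takes group means, so the range tends to be the larger. The share over all genes was not counted, here or for the highest and lowest arrays, so these counts are a description. The median range was 0.69 over the 5 WT arrays and 0.70 over the 5 KO arrays. It was 0.25 over the WT arrays without WT 1. That value covers fewer arrays and drops the one most often lowest, while no KO array was dropped. It therefore does not compare the spread of the genotypes. Without WT 1 the median difference of the members was -0.16 in place of -0.07, and 0 of 47 were called by limma. The within-group SD of the members had a median of 0.31, against 0.29 for all genes. After subtracting the members' median on each array it was 0.20, and the SD was smaller than before in 39 of 47 members, against 25% of all genes. That subtraction uses the members themselves, so the smaller SD is a description. The KO and WT arrays still overlapped in all 47 members after it, with 0 apart, while 2.83% of all genes were apart.

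**Figure D3:**
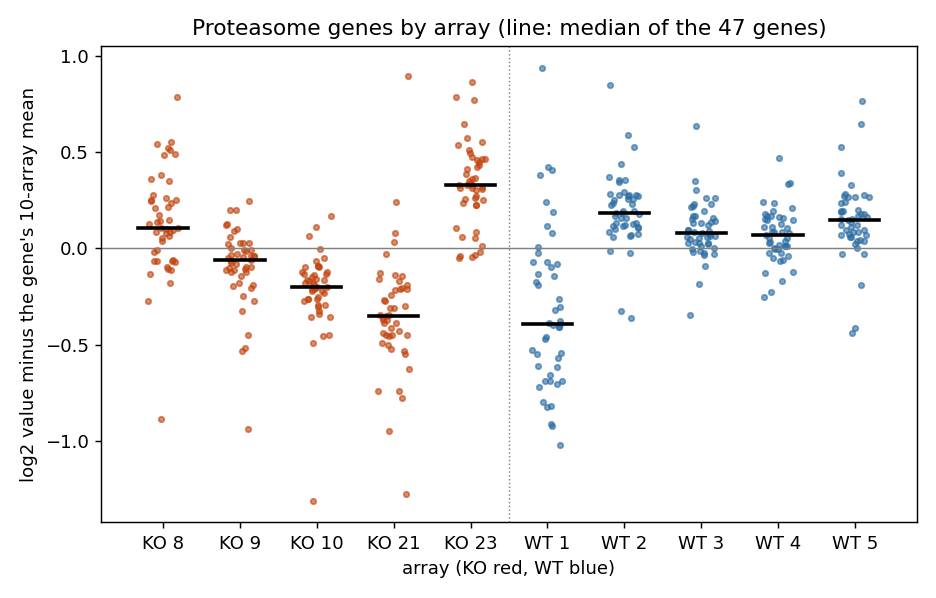
Log2 value minus the gene's own mean over the 10 arrays (vertical axis) for the 47 proteasome genes on each array (horizontal axis, KO arrays left, WT arrays right). Points are genes and lines are medians. KO 23 (median 0.33) lies high, KO 21 (-0.35) and WT 1 (-0.39) lie low, and the spread within each genotype is wider than the gap between them.

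Other measures differed between these arrays too. The poly-A spike-in signal was 11.28 on WT 1, 11.03 on KO 8 and 10.68 on WT 2, against 9.85 to 10.37 on the other arrays (mean log2 signal). WT 1 was low for the proteasome genes, whereas KO 8 and WT 2 were high. The difference between 3' and 5' Gapdh probe sets, a measure of RNA integrity, was 1.63 on KO 8 and 1.72 on KO 23, and 1.96, 2.10 and 2.10 on KO 9, KO 10 and KO 21. The Gapdh difference thus divided the KO arrays as the proteasome medians, Psmb8 and Psmb10 did. The same difference for Actb did not. It was 0.205, 0.209, 0.161, 0.177 and 0.259 on KO 8, KO 9, KO 10, KO 21 and KO 23, so KO 23 had the highest value there. On WT arrays 1 to 5 the Gapdh difference was 1.72, 1.80, 2.01, 1.92 and 2.005. WT 1, the low array for the proteasome genes, had the lowest WT value for Gapdh and also for Actb (0.169). The mean of the 7 leukocyte markers was 5.81 on KO 23 and 5.74 on WT 5, against 4.67 to 5.13 on the other arrays. These were the arrays with the highest Psmb8 in their genotype, 6.75 and 6.73, but KO 8, with the second highest Psmb8 of the KO arrays (6.47), had the lowest leukocyte mean of all (4.67). The myeloid genes Tyrobp and Lyz2 read 9.04 and 10.48 on KO 23 and 9.04 and 10.50 on WT 5, while Ptprc read 3.12 on KO 23 and 3.25 on WT 5. Of the 7 leukocyte markers 0 passed by limma. Differences were -0.58 for Lyz2, -0.21 for Tyrobp, 0.23 for Ptprc and 0.04 for Cd3e, with a list median of -0.13. The mean of the 5 melanocyte markers ran from 8.48 to 10.20 in KO arrays, against 6.74 on WT 1 and up to 10.24 on WT 5. The fibroblast list ran from 5.68 to 7.48 in KO and from 5.62 to 8.70 in WT, and the endothelial list from 3.89 to 4.42 in KO and from 4.08 to 4.57 in WT, and 0 genes of either list passed by limma. The part of these measures in the proteasome values was not tested.

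Of 47 further genes listed for the ubiquitin-proteasome route and class I antigen processing, 37 were measured through a probe set of their own, and 0 of them passed by limma, where 2.65% of all genes did. The others were not analysed here. At an unadjusted p under 0.05 there were 5, or 13.5%, against 13% of all genes, and in 2 genes, or 5.41%, the groups did not overlap, against 4.38% of all genes. The 5 were Nfe2l1 (0.58), Ngly1 (0.52) and Zfand5 (0.51), with positive differences, and Keap1 (-0.31) and Irf1 (-0.30), with negative ones. Nfe2l1, the transcription factor that raises proteasome gene expression when the proteasome is inhibited, read 10.22, 10.17, 10.10, 10.02 and 10.08 in the KO arrays, against 9.37, 9.91, 9.77, 9.46 and 9.15 in the WT arrays. The KO and WT values did not overlap, and the difference of 0.58 (SE 0.16) had a limma adjusted p of 0.0760, which did not pass. Without WT 2 the adjusted p was 0.0361 by limma, with a difference of 0.68, and with array weights it was 0.0213, with a difference of 0.55. Zfand5, a proteasome-binding zinc finger protein, was the other gene of these lists whose groups did not overlap, with a difference of 0.51 (SE 0.15) and a limma adjusted p of 0.129, or 0.61 and 0.0131 with array weights.

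Pomp, the maturation chaperone of the core particle, averaged 10.42 ± 0.22 in KO and 10.40 ± 0.16 in WT (log2 signal, SD, n = 5 each). Of the 12 measured class I genes, Tap1, a subunit of the peptide transporter, averaged 8.20 ± 0.39 in KO and 8.09 ± 0.45 in WT, and B2m, the class I light chain, 11.86 ± 0.56 in KO and 11.55 ± 0.97 in WT (SD, n = 5 each). The mean of these 12 genes was 9.42 on KO 23 and 9.37 on WT 5, against 8.33 to 9.06 on the other arrays, with WT 1 the lowest. WT 1 was also the lowest array and KO 23 the highest for proteasome-associated factors (8.84 and 9.29) and the Nfe2l1 route (8.92 and 9.46). The same held for ubiquitin supply and shuttles (7.98 and 9.28). The cell type lists did not all do so, and WT 1 was the highest array for the endothelial list (4.57). The list medians of the difference were 0.005 for proteasome-associated factors, 0.16 for the Nfe2l1 route, 0.15 for ubiquitin supply and shuttles, and 0.11 for class I processing, beside -0.07 for the proteasome genes and -0.01 for all genes.

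**Figure D4:**
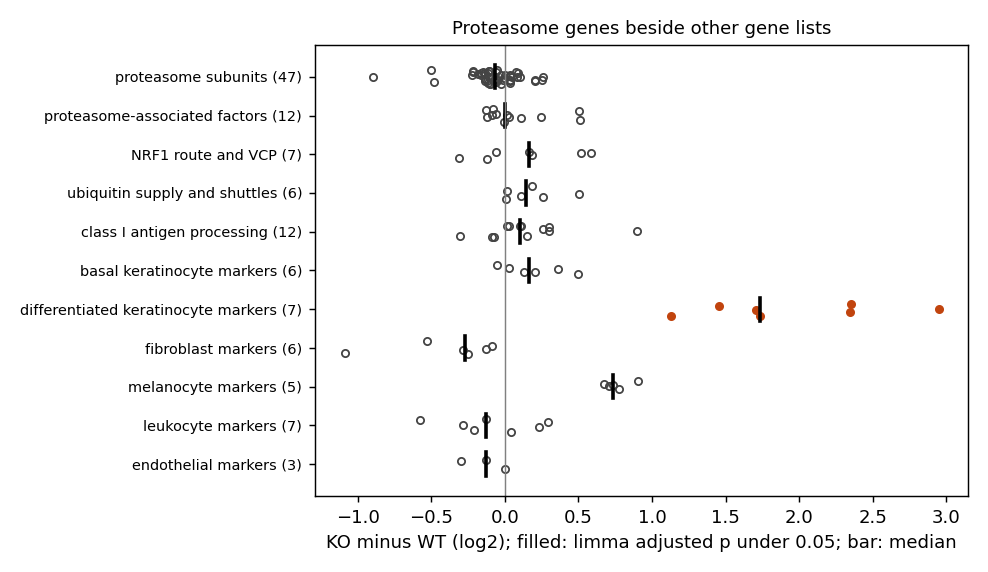
Difference KO minus WT on the log2 scale (horizontal axis) of each gene in the proteasome set and in 10 other lists (vertical axis, number of genes in brackets). Filled points passed limma at an adjusted p of 0.05, open points did not, and bars are medians. The 7 differentiated keratinocyte markers pass and lie from 1.13 to 2.95, while the proteasome genes gather around -0.07.

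Because most members varied together from array to array, their promoters were read for shared letters. RefSeq promoter windows of build GRCm38.p6 were matched by symbol for 39 members, with 41 windows, and the 250 bases before the start site were searched on both strands for 4 motifs. The ETS core CCGGAAG stood in 13 of 41 windows, or 31.7%, against 10.1% of the windows of all genes measured. The antioxidant response element TGACNNNGC, which Nfe2l1 and Nfe2l2 can bind, stood in 12.2% against 11.5%. The interferon-stimulated response element, searched as GAAA, any 2 bases and GAAA, stood in 7.32%, against 2.61%, in the windows of Psmb3, Psmd4 and Psmd9. CCAAT stood in 34.1% against 34.7%. None of these motifs contains another, and a match is a description and not a site.

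The windows of Psmb8 and Psmb5 are shown because that pair changed within arrays, and those of Psmc1 and Psmd2 because they are subunits low on WT 1 with an ETS core near the start site. They lie at chr17:34197945-34198194 on the plus strand (Psmb8), chr14:54617996-54618245 on the minus strand (Psmb5), chr12:100109952-100110201 on the plus strand (Psmc1) and chr16:20651402-20651651 on the plus strand (Psmd2). Each runs 5′ to 3′ and ends at the base before the start site, and capitals mark the matches.
Psmb8: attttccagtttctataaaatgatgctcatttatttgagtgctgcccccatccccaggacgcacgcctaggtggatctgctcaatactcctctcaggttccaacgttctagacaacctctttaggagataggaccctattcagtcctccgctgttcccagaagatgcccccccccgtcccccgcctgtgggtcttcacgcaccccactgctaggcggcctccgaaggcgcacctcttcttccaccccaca
Psmb5: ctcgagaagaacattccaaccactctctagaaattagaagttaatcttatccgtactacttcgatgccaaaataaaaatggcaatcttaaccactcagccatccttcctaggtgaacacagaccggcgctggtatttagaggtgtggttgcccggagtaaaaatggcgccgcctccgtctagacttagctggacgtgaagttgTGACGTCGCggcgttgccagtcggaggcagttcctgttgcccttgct
Psmc1: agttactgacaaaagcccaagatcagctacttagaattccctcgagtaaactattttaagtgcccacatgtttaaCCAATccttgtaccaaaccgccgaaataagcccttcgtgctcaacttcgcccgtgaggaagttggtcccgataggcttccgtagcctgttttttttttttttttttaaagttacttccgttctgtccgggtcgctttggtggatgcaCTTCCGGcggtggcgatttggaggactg
Psmd2: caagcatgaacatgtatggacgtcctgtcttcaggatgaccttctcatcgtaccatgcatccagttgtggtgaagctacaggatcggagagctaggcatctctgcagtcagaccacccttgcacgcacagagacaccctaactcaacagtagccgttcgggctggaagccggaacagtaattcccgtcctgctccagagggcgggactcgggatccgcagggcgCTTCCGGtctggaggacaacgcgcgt
In Psmb5 the capitals are an antioxidant response element, in Psmc1 a CCAAT box and an ETS core, and in Psmd2 an ETS core, both ETS cores read on the opposite strand and so printed as the reverse complement. The Psmb8 window held no match to the 4 motifs, which says only that these letters are not in this window. Psmc1 and Psmd2 were picked for having both traits. The windows of Psma1, Psma5 and Psmd14, also low on WT 1, held no ETS core. That of Psme4 held one, though WT 1 was not its lowest WT array. Whether the ETS core goes with the low values on WT 1 was not tested.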

How the data were processed

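Total RNA (6 µg per sample) was labelled with biotin and hybridised to 10 Affymetrix arrays, 5 KO and 5 WT, per the labels' protocols. The deposited values are log2 signals, 1 per probe set and array, made by the authors with RMA, per the submitters' processing notes. The version is not given in the sources used here. RMA compresses differences near background and hides shifts common to most genes. The values, 1.13 to 14.92, were used as deposited, with no filter. All 10 columns were used. Of 45101 probe sets, 34958 were annotated to 1 gene, 932 to several and 9211 are unnamed here, by GEO's platform table with symbols updated through RefSeq (GRCm38.p6). That gave 18194 genes, of which 18032 matched.

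Differences are KO minus WT from limma 3.58.1 in R 4.3.3 (lmFit, eBayes, two-sided, Benjamini-Hochberg over all genes). SE is the moderated standard error. The subunit pairs were compared by an exact permutation test over 252 assignments. The limma and permutation steps were tested on simulated data. The members, lists, motifs and rules were chosen with earlier results of these data known. Full values are given for the 6 catalytic subunits, the 3 highest and 3 lowest differences, genes past the threshold and a few fixed genes; others named by array were chosen after their values were seen. No replicate number occurs in both genotypes, so samples were not paired. Alternatives were each array left out, the 3 arrays with most spike-in signal left out, other normalisations, a minimum mean of 6, other variance models, array weights, the mean of all probe sets, array number as covariate, and adjustment over all probe sets. Centring on the proteasome genes was added after the data were seen.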

Additional observations from a re-analysis of the deposited data

Results flagged for a closer look

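In 17 of 130 checked groups of 5 arrays, the highest or lowest array lay farther from the rest than Dixon's 95% criterion allows. Chance gives about 1 in 20 for a single group. The groups share arrays and most members varied together, so the flags are not independent and their number is a description. Of the 17, 15 were proteasome genes low on the same array, WT 1. In the core particle they were Psma1 (7.88), Psma5 (8.28), Psma7 (9.67), Psmb4 (9.81), Psmb5 (8.01) and Psmb7 (8.98), all log2 signals. In the regulatory particle they were Psmc1 (9.86), Psmc2 (8.95), Psmc4 (8.78), Psmd1 (9.64), Psmd2 (9.33), Psmd6 (8.36), Psmd8 (8.13) and Psmd14 (9.71), and among the chaperones Psmg1 (6.68). The others were Pomp, high on WT 2 at 10.69, and the differentiation marker Ivl, low on WT 4 at 7.99. Without WT 1 the members' median difference was -0.16, and 0 of 47 passed by limma.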

How the results depend on the processing

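The count of 0 proteasome genes called by limma held in every alternative except array weights, where 2 were called lower, Psmb8 and Psmb10. With array weights 561 of all 18194 genes were called lower, against 63 without them. Of 935 values of single members over 20 alternatives, 825 kept their sign and side of the threshold, 2 passed it and 108 changed sign, in 28 members, and the cause was not tested. The members' median difference ran from -0.157 to 0.020 with 1 array left out, and was -0.234 with array number as covariate. The change in Psmb8 minus Psmb5 ran from -1.291 to -0.979 with 1 array left out. It lost its call without any single WT array, though the KO and WT values still did not overlap in these subsets. Without the 3 arrays with the most spike-in signal it was -1.301, with an exact permutation p of 0.0571 and 0.171 adjusted. The smallest p that 35 assignments allow is 0.0286, or 0.0857 adjusted when 1 pair alone reaches it, so 1 pair alone could not pass there. Over all genes, 264 to 419 were called higher and 13 to 107 lower with 1 array left out, 877 and 561 with array weights, 0 and 0 with array number as covariate, which runs from 6 to 10 in KO and from 1 to 5 in WT, and 254 and 37 after centring on the proteasome genes, an alternative chosen after seeing the data. Median centring gave 40 lower, and adjustment over all probe sets 30 lower. With a minimum mean of 6, 42 members were left. No paired analysis was possible because the genotypes share no replicate number. With RMA values alone, signal over background is unknown, which limits the dim members.

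Signs turned as follows (log2 differences). Without the 3 spike-in arrays: Psma5 -0.228, Psmb1 -0.067, Psmb5 -0.009, Psmb9 -0.323, Psmb11 0.023, Psmc4 -0.137, Psmc5 -0.141, Psmd1 -0.093, Psmd6 -0.072, Psmd8 -0.004, Psmd12 -0.108, Psmd10 -0.120, Tap1 -0.141, B2m -0.387, Krt14 -0.048 and Psmb9 minus Psmb6 -0.170. With array weights: Psma5 -0.255, Psmb1 -0.056, Psmb5 -0.001, Psmb9 -0.237, Psma8 -0.012, Psmc4 -0.157, Psmc5 -0.120, Psmd1 -0.112, Psmd6 -0.068, Psmd12 -0.067, Psmd10 -0.195, B2m -0.147 and Krt14 -0.028. With array number as covariate: Psma5 -0.328, Psmb1 -0.289, Psmb5 -0.223, Psmb9 -0.359, Psmb11 0.504, Psmc2 -0.178, Psmc4 -0.181, Psmc5 -0.178, Psmd1 -0.182, Psmd2 -0.268, Psmd6 -0.321, Psmd8 -0.190, Psmd12 -0.137, Psmd10 -0.095, Psmg2 -0.010, Tap1 -0.367, B2m -0.883, Krt5 0.001 and Krt14 -0.173. With quantile normalisation: Psma5 -0.002, Psmc4 -0.026 and Krt14 -0.046. With the mean over probe sets: Psma6 0.004, Psmb4 0.034, Psmc4 -0.080, Psmf1 0.094 and Tap1 -0.004. With median centring: Psmb6 0.002 and Psmb7 0.009. With centring on the proteasome genes: Psmb7 0.003. With 1 array left out, the ranges were Psma1 -0.237 to 0.057, Psma5 -0.191 to 0.126, Psma6 -0.169 to 0.024, Psma7 -0.180 to 0.067, Psmb1 -0.084 to 0.202, Psmb4 -0.164 to 0.064, Psmb6 -0.126 to 0.118, Psmb7 -0.206 to 0.179, Psmb9 -0.177 to 0.201, Psma8 -0.001 to 0.208, Psmc1 -0.176 to 0.029, Psmc2 -0.024 to 0.308, Psmc3 -0.184 to 0.020, Psmc4 -0.137 to 0.067, Psmc5 -0.095 to 0.126, Psmd1 -0.081 to 0.149, Psmd6 -0.052 to 0.233, Psmd12 -0.060 to 0.096, Psme1 -0.289 to 0.041, Psmf1 -0.158 to 0.008, Psmd5 -0.211 to 0.026, Psmd10 -0.154 to 0.189, Psmg2 -0.182 to 0.265, Psmg3 -0.264 to 0.061, Pomp -0.043 to 0.095, Tap1 -0.047 to 0.294, B2m -0.083 to 0.544, Krt14 -0.024 to 0.062 and Psmb9 minus Psmb6 -0.051 to 0.176.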

Other observations

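Psme2, the beta subunit of the PA28 cap, shares its probe set with Psme2b, so its signal cannot be given to either gene. That probe set read 8.67, 7.69, 7.77, 7.42 and 8.41 in KO arrays 8, 9, 10, 21 and 23, against 7.47, 8.29, 8.02, 7.81 and 7.85 in WT arrays 1 to 5 (log2 signal). KO 8 and KO 23 were the highest of the 10, as they were the highest KO arrays for Psme1, Psmb8, Psmb9 and Psmb10. Its limma adjusted p over all probe sets was 0.964, at a difference of 0.11 (SE 0.24).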
